A study of Mus musculus with 18 samples.

Results

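Collagen chain genes were taken as the protein-coding genes whose name is Col, a number, a and a number. In these data 31 genes met that rule, of 15194 genes listed in any deposited gene table. RNA came from mouse 3T3-L1 cells, a fibroblast line that can be driven to form adipocytes in culture. It was sequenced in 18 libraries, with 3 libraries in each of 6 groups. J0_CTL, J0_MLKL and J0_RIPK3 are undifferentiated, untreated cells that are control, MLKL-/- or RIPK3-/-. J7_CTL, J7_MLKL and J7_RIPK3 are differentiated cells of the same 3 names. MLKL and RIPK3 are proteins of necroptosis, a form of programmed cell death. All groups share the 3T3-L1 background. The labels give neither the way the knockouts were made nor the number of clones. They also do not state that libraries of a group came from separate cultures, so each p-value rests on a spread that may be technical.

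Titles and genotype labels disagree for the 6 differentiated knockout samples: where the title says MLKL the genotype says RIPK3-/-, and the reverse. Titles were followed here, as in the columns of the deposited tables, and under the other reading every value of J7_MLKL and J7_RIPK3 changes places. The targeted transcripts were read in CPM (reads scaled to the library total). Mlkl was at 18.2 to 19.8 in J0_CTL, 7.19 to 9.72 in J0_MLKL and 14.5 to 17.7 in J0_RIPK3, and at 25.4 to 27.5 in J7_CTL, 13.9 to 16.4 in J7_MLKL and 26.5 to 32.3 in J7_RIPK3. It was thus lowest in the groups titled MLKL at both stages, and at J7 this runs with the titles rather than the genotype labels. Ripk3 was at 16.8 to 19.6 CPM in J0_CTL, 5.74 to 9.44 in J0_MLKL and 14.7 to 17.3 in J0_RIPK3, and at 17.5 to 19.2 in J7_CTL, 7.73 to 11.99 in J7_MLKL and 10.2 to 11.7 in J7_RIPK3. It was lower in J0_MLKL than in J0_RIPK3, so its level does not follow the labels at J0, where title and genotype agree, and the J7 knockout groups overlapped. Both transcripts were read in every library, and nothing in the labels says which part of either gene was changed.

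Libraries held 20.2 to 36.9 M reads. The deposited tables are restricted to genes that passed the authors' own adjusted p of 0.05, so the genes tested are preselected. The genes with counts held 90.0 to 98.4% of the reads in the CTL and RIPK3 libraries, 53.5 to 54.5% in J7_MLKL and 29.3 to 30.4% in J0_MLKL. As a result 17 of the 31 chains have counts in all 6 groups, and 25 have them in the 5 groups other than J0_MLKL. Within groups, 2 libraries stood apart. The chi-square per gene between J7_MLKL 3 and the other J7_MLKL libraries was 207.2 and 217.0, against 5.05 for the remaining pair. Between J0_MLKL 2 and the other J0_MLKL libraries it was 48.3 and 55.0, against 3.26. In the other 4 groups pairs of libraries lay between 2.79 and 7.74, so no pair agreed within sampling noise. Counts of called genes from MLKL groups are given below with and without these libraries.

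Labelled cell states were checked against marker lists that hold no collagen gene. The summed level of 8 of 8 adipocyte markers was 247 to 479 CPM over the J0 libraries, 22000 to 23140 in J7_CTL, 24540 to 26670 in J7_RIPK3 and 3683 to 5775 in J7_MLKL. Most of the J0 sum was Lpl, at means of 243.9 in J0_CTL, 434.4 in J0_MLKL and 277.1 in J0_RIPK3. Adiponectin (Adipoq) was at 0 in J0_CTL and J0_MLKL, Cfd at 0 in J0_CTL, and Retn at 0 in J0_MLKL and J0_RIPK3. For fibroblast and preadipocyte markers, 5 of 8 had counts in every group. Their sum was 896 to 965 CPM in J0_CTL, 1065 to 1262 in J0_MLKL, 1076 to 1104 in J0_RIPK3, 130.5 to 136.6 in J7_CTL, 130.8 to 148.2 in J7_RIPK3 and 1263 to 1302 in J7_MLKL. Most of that sum was Dcn, at 872 ± 65 CPM in J0_MLKL and 1109 ± 50 (SD, n = 3) in J7_MLKL. Lum was also higher in J7_MLKL than in J0_MLKL, while Thy1 (151.7 and 60.4), Ly6a (78.8 and 33.5) and Cd34 (2.85 and 1.26) had lower means. Dlk1 was at 0 in J7_CTL and J7_RIPK3. Of 4 myofibroblast markers, the 2 with counts in every group were Acta2 and Myh11. Their sum was 163.6 to 192.4 CPM in J0_CTL, 295 to 430 in J0_MLKL, 217.4 to 237.4 in J0_RIPK3, 24.4 to 30.04 in J7_CTL, 23.3 to 25.6 in J7_RIPK3 and 535 to 1132 in J7_MLKL, with the highest value in J7_MLKL 3. Acta2 made up most of it, and Myh11 was at a mean of 7.14 in J7_CTL and 5.56 in J7_MLKL. Markers of other cell types differed between groups as well, and their part in the collagen values was not tested. The chondrocyte markers Sox9 and Comp summed to 236 to 265 CPM in J0_CTL, 54.2 to 59.3 in J7_CTL and 111.1 to 142.6 in J7_MLKL. Sox9 made up most of it, at means of 246.0, 48.4 and 112.4. Comp went from a mean of 4.53 in J0_CTL up to 8.49 in J7_CTL, and was at 17.7 in J7_MLKL. The osteoblast factor Runx2 was at a mean of 69.4 in J0_CTL, 14.6 in J7_CTL and 68.0 in J7_MLKL, where it was lowest in J7_MLKL 3 (44.6). The osteoblast markers Bglap and Ibsp were scarce, at means of 0.693 and 0.0114 in J0_CTL and of 0.107 and 0.344 in J7_CTL. The keratins Krt8 and Krt18 had means of 0.153 and 0.0269 in J0_CTL and of 15.4 and 18.3 in J7_CTL. The markers named here did not all change in the same direction, and their part in the collagen results below was not tested. In bulk RNA, fewer cells of a type and less RNA per cell cannot be told apart.

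Collagens are secreted proteins built from 3 chains wound into a triple helix. Fibrillar types (I, II, III, V, XI and XXVII) assemble into the fibres of interstitial matrix, with type I made of chains of Col1a1 and Col1a2. Type IV forms the sheet-like network of basement membranes, type VI forms beaded filaments around cells, and the multiplexins XV and XVIII sit at the basement membrane zone. FACIT collagens attach to fibril surfaces, and the transmembrane collagens stay anchored in the plasma membrane. Adipose tissue is known for a basement membrane around each adipocyte and for type VI collagen in its matrix.

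The 31 chains listed comprised 10 fibrillar chains (Col1a1, Col1a2, Col2a1, Col3a1, Col5a1, Col5a2, Col5a3, Col11a1, Col11a2 and Col27a1), 4 of the type IV network (Col4a1, Col4a2, Col4a4 and Col4a5) and 3 beaded filament chains (Col6a1, Col6a2 and Col6a3). The multiplexins Col15a1 and Col18a1 were listed. So were 6 FACIT chains (Col9a2, Col9a3, Col12a1, Col16a1, Col20a1 and Col22a1), the short chain network genes Col8a1 and Col8a2, and the transmembrane chains Col17a1 and Col23a1. The remaining chains were Col7a1, which builds anchoring fibrils, and Col28a1.

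The genes lie on many chromosomes of the mouse build mm10, and a few are close neighbours. Col4a1 (chr8:11198423-11312826, minus strand) and Col4a2 (chr8:11312805-11449287, plus strand) point away from each other, and their annotated spans overlap by 22 bases. Strand use in counting is not given in the sources used here, so reads in those 22 bases cannot be assigned to 1 of the pair. Col3a1 (chr1:45311538-45349706, plus strand) and Col5a2 (chr1:45374321-45503282, minus strand) lie 24614 bases apart.

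Sequences before the start sites of 4 chains are shown because these chains carry the results below. Col3a1 is an abundant fibrillar chain, Col11a1 is a minor fibrillar chain that was higher in both undifferentiated knockout groups than in CTL, Col23a1 had the largest fall with differentiation in CTL, and Col15a1 had the largest rise. Each run is the 250 bases before the start of the RefSeq transcript on build GRCm38.p6, which is the same assembly as mm10, written 5′ to 3′. Capitals mark matches, on either strand, to the CCAAT box letters, to the GC box letters GGGCGG or to the TATA box letters TATAAA.
Col3a1, chr1:45311288-45311537, plus strand: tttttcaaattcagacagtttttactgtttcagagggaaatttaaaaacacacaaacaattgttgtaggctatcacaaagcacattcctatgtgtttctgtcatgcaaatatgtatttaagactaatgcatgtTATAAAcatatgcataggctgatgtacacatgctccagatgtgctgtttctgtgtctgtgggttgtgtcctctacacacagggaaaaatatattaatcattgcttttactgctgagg
Col11a1, chr3:114030290-114030539, plus strand: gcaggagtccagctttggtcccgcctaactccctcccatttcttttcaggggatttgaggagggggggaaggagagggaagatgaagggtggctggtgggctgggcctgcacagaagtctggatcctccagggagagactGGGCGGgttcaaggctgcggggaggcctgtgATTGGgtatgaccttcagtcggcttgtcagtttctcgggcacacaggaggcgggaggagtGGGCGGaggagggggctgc
Col23a1, chr11:51289670-51289919, plus strand: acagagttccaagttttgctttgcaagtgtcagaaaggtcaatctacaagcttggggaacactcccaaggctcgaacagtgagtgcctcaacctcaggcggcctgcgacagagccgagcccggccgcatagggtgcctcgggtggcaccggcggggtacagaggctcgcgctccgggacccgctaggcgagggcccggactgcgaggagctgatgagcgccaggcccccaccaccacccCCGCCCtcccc
Col15a1, chr4:47207762-47208011, plus strand: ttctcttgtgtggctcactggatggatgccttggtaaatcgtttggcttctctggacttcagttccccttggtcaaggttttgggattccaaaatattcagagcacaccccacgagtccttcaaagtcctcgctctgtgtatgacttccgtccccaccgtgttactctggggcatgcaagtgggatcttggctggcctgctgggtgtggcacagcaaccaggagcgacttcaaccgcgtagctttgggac
Col3a1 holds TATAAA at 117 to 112 bases before its start. Col11a1 holds GGGCGG at 110 to 105 and again at 19 to 14 bases before its start, and CCAAT on the minus strand at 79 to 75. Col23a1 holds GGGCGG on the minus strand at 11 to 6 bases before its start. Col15a1 holds none of these letters in the run shown, whose RefSeq start lies 149 bases before the deposited gene start.

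RefSeq windows, from 250 bases before to 50 after a start, were found for 25 of the 31 chains, as 27 windows. Of these windows 66.7% held GGGCGG on either strand, against 35.7% of the 32851 windows of all genes. CCAAT was in 37.0% against 37.4%, TATAAA in 11.1% against 13.6%, and TTGCNNAA in 3.7% against 10.8%. Matches of different motifs may overlap, each motif was counted on its own on both strands, and a match describes the window only.

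Differentiation of the control cells, J7_CTL against J0_CTL, moved collagen expression away from the fibrillar chains of types I, III and V (Col5a2) and towards types IV, VI, XV and XVIII. Of 27 chains that passed the filter on low counts, 12 rose and 15 fell (adjusted p under 0.05, edgeR's quasi-likelihood test with Benjamini-Hochberg adjustment over all genes tested). Over all 12055 genes tested, 48.2% were called higher and 47.6% lower, 95.9% together, so a call by itself says little about collagens here. All 27 are also among the genes of the authors' deposited table for this comparison, which lists 30 chains. Their calls were thus fixed in advance. The median log2 fold change was -1.27 over the 27 chains and 0.03 over all genes tested. By class the median was -1.32 for 10 fibrillar chains, of which 3 rose and 7 fell, and 0.97 for 3 beaded filament chains, which all rose. Levels below are the authors' FPKM, which is scaled by gene length and library total.

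Col1a1 stood at 575, 548.5 and 552.7 FPKM in J0_CTL and at 110.2, 110.6 and 109.5 in J7_CTL. The groups do not overlap, and every J7_CTL library lies at about the same low level. The log2 fold change was -2.39 ± 0.03 (SE; adjusted p = 4.23e-28), or 5.24-fold lower. Its partner Col1a2 stood at 706, 650 and 663 FPKM in J0_CTL and at 265, 265 and 272 in J7_CTL, a log2 fold change of -1.38 ± 0.03. The level of Col1a1 per Col1a2 was 0.831 ± 0.015 (SD, n = 3) in J0_CTL and 0.412 ± 0.0079 in J7_CTL, so the pair did not fall in proportion in these libraries. Col3a1, the chain of type III collagen, went from 446, 417 and 421 FPKM to 194, 201 and 197, with a log2 fold change of -1.16 ± 0.03.

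Type V collagen, a minor component of type I fibrils, split by chain. Col5a2 was at 125.3, 121.3 and 125.0 FPKM in J0_CTL and at 51.4, 54.3 and 53.0 in J7_CTL (log2 fold change -1.27 ± 0.03). Col5a1 was at 76.9, 78.6 and 76.9 FPKM and then at 91.8, 91.1 and 89.5, a small rise of 0.18 ± 0.03 on the log2 scale (adjusted p = 3.19e-06). Col5a3 rose from 31.4, 31.4 and 32 FPKM to 80.0, 81.0 and 79.3 (log2 fold change 1.30 ± 0.03). The level of Col5a1 per Col5a2 accordingly moved from 0.626 ± 0.019 to 1.72 ± 0.060 (SD, n = 3). The type XI chains also split. Col11a1 fell from 0.943, 0.945 and 1.04 FPKM to 0.205, 0.248 and 0.202 (log2 fold change -2.20 ± 0.12), while Col11a2 rose from 2.85, 3.12 and 3.36 to 12.6, 13.1 and 13.9 (2.05 ± 0.05). Col27a1 fell from 6.65, 7.22 and 7.41 FPKM to 1.78, 1.99 and 1.98 (-1.93 ± 0.05). Col2a1, the main cartilage collagen, was near the lower end of detection, at a mean of 0.0861 FPKM in J0_CTL and 0.0214 in J7_CTL.

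Basement membrane chains rose with differentiation in control cells, with Col4a5 as the exception. Col4a1 was at 141, 137 and 136 FPKM in J0_CTL and at 458.9, 455.2 and 453.6 in J7_CTL, a log2 fold change of 1.68 ± 0.03 (adjusted p = 1.89e-25). Col4a2, which joins Col4a1 in the common type IV trimer, went from 113.7, 108.6 and 110.1 FPKM to 295, 293 and 287 (1.35 ± 0.03). Col4a5, a chain of another type IV trimer, fell from 42.5, 43.1 and 42.3 to 14.7, 15.1 and 14.2 FPKM (-1.59 ± 0.03). The multiplexin Col15a1 was at 1.31, 1.45 and 1.30 FPKM in J0_CTL and at 45.8, 46.2 and 45.9 in J7_CTL. That is 32.8-fold higher (log2 fold change 5.04 ± 0.04, adjusted p = 1.83e-30), the largest rise among the 27 chains. Col18a1, whose C-terminal fragment is endostatin, rose from 17.3, 17.7 and 16.1 FPKM to 36.8, 38.0 and 37.8 (1.09 ± 0.04).

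All 3 type VI chains rose. Col6a1 went from 470.3, 425.9 and 436.7 FPKM to 726, 727 and 713 (log2 fold change 0.66 ± 0.03), and Col6a2 from 158.8, 146.7 and 149.9 to 309, 306 and 303 (0.97 ± 0.03). Col6a3 rose more, from 163, 171 and 159 FPKM to 511, 517 and 495 (1.58 ± 0.03). No J0_CTL library reached the level of a J7_CTL library for any of them. The beaded filament class thus held the highest FPKM in J7_CTL.

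Among the remaining classes, the transmembrane and FACIT chains held the largest falls. Col23a1, a transmembrane collagen, dropped from 4.83, 4.53 and 4.86 FPKM in J0_CTL to 0.116, 0.0495 and 0.111 in J7_CTL, with a log2 fold change of -5.72 ± 0.14 (adjusted p = 1.07e-21). Col12a1 dropped from 8.11, 8.25 and 8.35 FPKM to 0.435, 0.451 and 0.448 (-4.25 ± 0.05). Col16a1, the FACIT chain with the highest level in J0_CTL, dropped from 75.6, 76.0 and 76.6 FPKM to 8.17, 8.56 and 7.97 (-3.25 ± 0.04). Col20a1 was the exception in that class and rose from 6.17, 6.49 and 6.44 FPKM to 19.2, 19.5 and 18.8 (1.55 ± 0.04). Col8a1, Col9a3, Col17a1 and Col28a1 fell, with log2 fold changes between -2.26 and -1.56, and Col7a1 rose by 1.56 ± 0.08.

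The chains Col8a2, Col9a2 and Col22a1 were listed in CTL but not tested, because their counts were under the filter. Col9a2 had 18 reads over the J0_CTL libraries and 0 over J7_CTL, at least 5.11-fold lower if 3 reads in the whole group are taken as the floor. Col22a1 had 15 reads and then 0, at least 4.26-fold lower against the same floor. These bounds cover counting error only. Col8a2 stood at a mean of 0.0976 FPKM in J0_CTL and 0.0239 in J7_CTL.

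**Figure D1:**
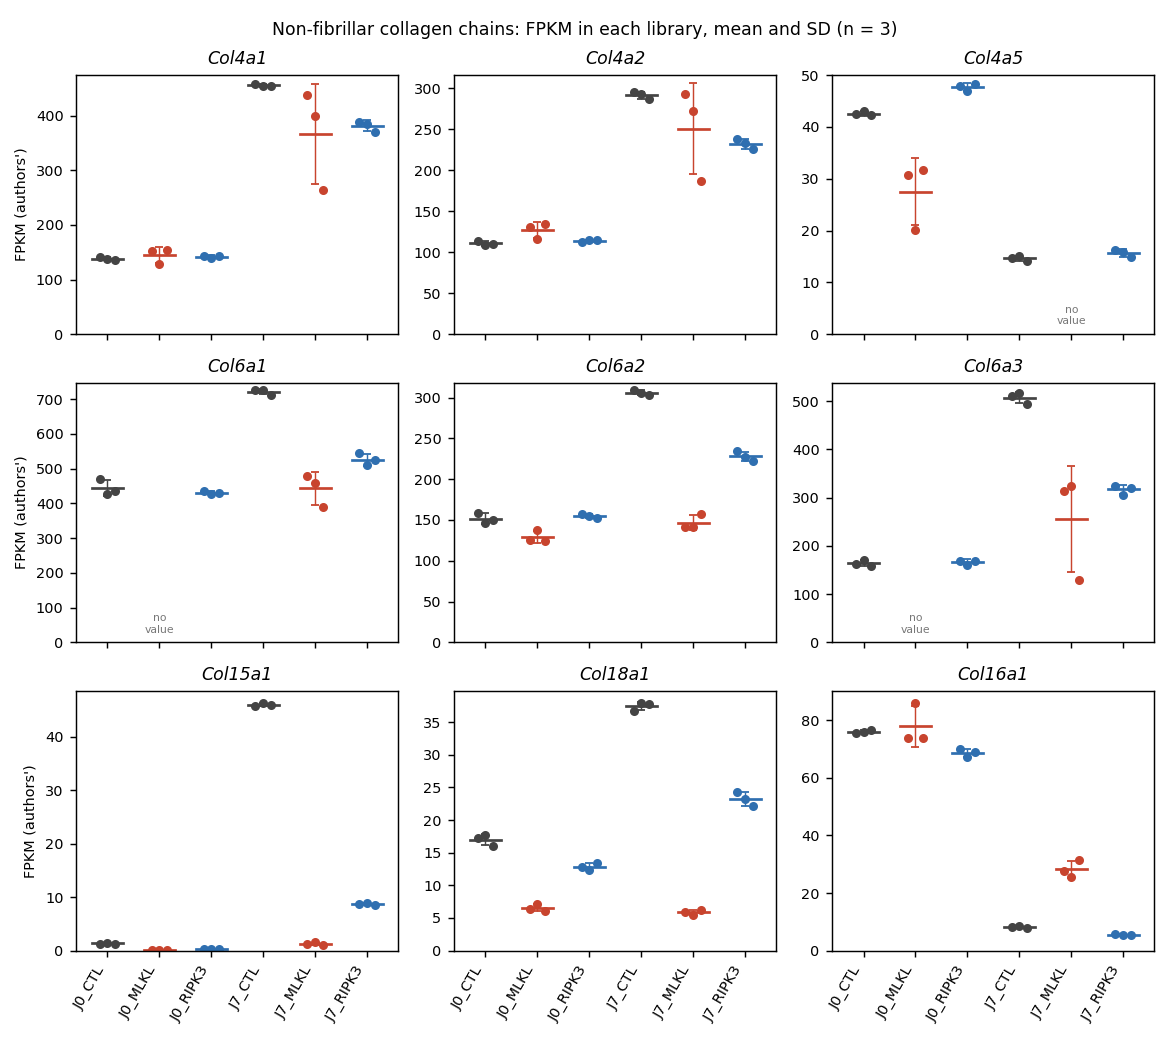
FPKM of 9 non-fibrillar chains in each of the 6 groups, with points for libraries, a line for the mean and a bar for the SD over 3 libraries. Col4a1 and Col4a2 are higher in every J7 library than in any J0 library. Col6a3 is higher in J7_CTL, J7_RIPK3, J7_MLKL 1 and J7_MLKL 2 than in J0_CTL and J0_RIPK3. The third J7_MLKL library lies below its group for Col4a1, Col4a2 and Col6a3. Col15a1 reaches 45.8 to 46.2 FPKM only in J7_CTL.

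The same step in the RIPK3-labelled cells, J7_RIPK3 against J0_RIPK3, gave 12 chains higher and 15 lower of 27 tested. Over all 11798 genes tested 49.3% were called higher and 48.5% lower, 97.8% together. All 27 chains are among the genes that the authors called in this comparison, so a call for them was fixed in advance. The classes split as in CTL: 7 of 9 fibrillar chains fell, all 3 type VI chains rose and both multiplexins rose. Col1a1 went from 709.4, 683.3 and 700.4 FPKM in J0_RIPK3 to 90.9, 88.7 and 89.2 in J7_RIPK3, a log2 fold change of -2.99 ± 0.03. Col15a1 rose from 0.285, 0.281 and 0.320 FPKM to 8.75, 8.93 and 8.50 (4.83 ± 0.09), and Col23a1 dropped from 4.06, 3.76 and 3.59 to 0.0654, 0.0604 and 0.0922 (-5.69 ± 0.16). Col4a4, listed in the RIPK3 groups only, was barely detected, at a mean of 0.0131 and 0.0519 FPKM. Col22a1 had 17 reads over J0_RIPK3 and 0 over J7_RIPK3, at least 4.70-fold lower.

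Whether the change itself differed from that of CTL was tested as an interaction, the J7 minus J0 change in RIPK3 minus that in CTL. Of 26 chains tested, 5 had a higher and 16 a lower value, while 18.4% of all 11027 genes tested were called higher and 20.6% lower, 39.0% together. The median was -0.35 over the chains and 0.01 over all genes. Read by the genotype characteristic, the counts would be 11 and 8. Among fibrillar chains 7 of 9 were called lower and 2 higher, and all 3 type VI chains were called lower. Col8a1, a short chain network collagen, differed most. It fell from 8.49, 9.28 and 8.33 FPKM in J0_RIPK3 to 0.245, 0.242 and 0.244 in J7_RIPK3, and from 2.32, 2.40 and 2.45 to 0.617, 0.461 and 0.467 in CTL. Its interaction was -2.90 ± 0.19 (adjusted p = 9.76e-13).

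Fibrillar chains differed by less in that interaction. Col11a1 gave -1.90 ± 0.17, Col3a1 -1.03 ± 0.05, Col1a2 -0.96 ± 0.04 and Col1a1 -0.58 ± 0.04, each a deeper fall in RIPK3 than in CTL. Col27a1 went the other way, at 1.77 ± 0.08 (adjusted p = 3.23e-16). It was at 8.47, 8.03 and 8.37 FPKM in J0_RIPK3 and at 7.28, 7.04 and 8.01 in J7_RIPK3. Its fall in RIPK3 was thus -0.18 ± 0.05 on the log2 scale, beside -1.93 in CTL. Col5a1 rose in CTL and fell in RIPK3, from 87.2, 88.6 and 91.2 FPKM to 66.1, 62.6 and 63.3 (-0.51 ± 0.03), with an interaction of -0.67 ± 0.04. For Col15a1, Col12a1, Col23a1, Col4a5 and Col17a1 the interaction did not pass, with values between -0.18 and 0.17. Under the genotype reading it was called for Col23a1 (4.91, adjusted p = 1.66e-08), Col15a1 (-2.90, adjusted p = 9.36e-08) and Col12a1 (1.41, adjusted p = 0.00353).

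In the MLKL-labelled cells, J7_MLKL against J0_MLKL, 6 of 17 chains tested rose, 7 fell and 4 were not called. All 3075 genes tested gave 35.8% higher and 30.9% lower, 66.7% together. Without J7_MLKL 3 and J0_MLKL 2 the counts were 7 and 10. The authors called 12 of the 17 chains in this comparison, so a call for those was fixed in advance. Of 5 fibrillar chains 2 fell, Col11a2 rose (0.93 ± 0.11 on the log2 scale) and 2 were not called. Col1a1 went from 830, 923.6 and 843 FPKM to 575.1, 549.3 and 566.4, a log2 fold change of -0.65 ± 0.09 (adjusted p = 0.00111). The value without both libraries was -0.64. Every J7_MLKL library held about the Col1a1 level of J0_CTL. Col3a1 went from 554, 548 and 559 FPKM to 424, 422 and 337 (-0.52 ± 0.11, adjusted p = 0.00611), with J7_MLKL 3 the lowest. Col11a1 (7.10, 4.90 and 8.07 FPKM, then 5.48, 5.74 and 1.79) overlapped between the groups and was not called (-0.67 ± 0.43, adjusted p = 0.215). Without both libraries it was called lower, at -0.50 (adjusted p = 5.67e-06). Col27a1 was the other fibrillar chain not called (-0.47 ± 0.19, adjusted p = 0.0654). It too was called lower without both libraries, at -0.39 (adjusted p = 4.32e-06), and in DESeq2, at -0.49 (adjusted p = 0.0373).

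The type IV chains Col4a1 and Col4a2 rose in MLKL as in the other lines, and Col4a5 has no counts in J7_MLKL. Col4a1 went from 152, 128 and 154 FPKM to 437.5, 398.8 and 264.1 (log2 fold change 1.30 ± 0.20), and Col4a2 from 131, 116 and 134 to 292.5, 272.8 and 187.3 (0.95 ± 0.17). In both cases J7_MLKL 3 was the lowest of its group and still above every J0_MLKL library. Col15a1 rose from 0.0883, 0.0777 and 0.0913 FPKM to 1.16, 1.55 and 1.10 (3.85 ± 0.23, adjusted p = 9.69e-05, and 3.84 without both libraries). Its level in J7_MLKL lay near that of J0_CTL. Col18a1 did not rise, with 6.37, 7.21 and 6.12 FPKM in J0_MLKL and 5.88, 5.50 and 6.21 in J7_MLKL (-0.19 ± 0.10, adjusted p = 0.143). Without both libraries it was called lower, at -0.20 (adjusted p = 0.0154). Col16a1 fell from 74.0, 86.1 and 73.8 FPKM to 27.6, 25.7 and 31.5 (-1.49 ± 0.12), and Col23a1 from 3.90, 3.48 and 3.64 to 2.19, 2.18 and 1.95 (-0.84 ± 0.12). Col12a1 fell by 1.17 on the log2 scale (adjusted p = 0.029), and by 1.05 without both libraries (adjusted p = 1.54e-08). The call was lost without J0_MLKL 1 (-1.14, adjusted p = 0.0732) and without J0_MLKL 3 (-1.03, adjusted p = 0.0878).

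The interaction for MLKL, its J7 minus J0 change minus that in CTL, was called higher for 7 of 17 chains and lower for 6. Over the 3033 genes tested the shares were 39.0% and 26.3%, 65.3% together, with a median of 0.30. The median of the chains was 0.11. Leaving out both libraries gave 8 and 8, and reading J7 by the genotype characteristic gave 6 and 8. Higher values belonged to chains that fell less in MLKL than in CTL. Col23a1 gave 4.83 ± 0.25 (adjusted p = 2.16e-08), Col12a1 3.04 ± 0.41, Col16a1 1.71 ± 0.12, Col1a1 1.69 ± 0.08 and Col27a1 1.42 ± 0.22. The value for Col11a1, 1.49 ± 0.52 (adjusted p = 0.0247), lost its call without J7_MLKL 1, J7_MLKL 2, J0_MLKL 2, J7_CTL 1 or J7_CTL 3, at adjusted p values of 0.0526 to 0.0903. Without both libraries these values were 4.84, 3.19, 1.70, 1.73, 1.52 and, for Col11a1, 1.67. Lower values belonged to chains that rose in CTL. The CTL change is subtracted in each value. A rise in CTL thus pulls the value down and a fall in CTL pushes it up by construction. Col18a1 gave -1.34 ± 0.11, Col15a1 -1.24 ± 0.22, Col11a2 -1.17 ± 0.13, Col20a1 -1.13 ± 0.11 and Col6a2 -0.86 ± 0.10. For Col4a1 (-0.42 ± 0.21, adjusted p = 0.0989) and Col4a2 (-0.45 ± 0.19, adjusted p = 0.0531) the interaction did not pass. Without both libraries it was called lower for each, at -0.31 and -0.34. DESeq2 called it lower for each as well, at -0.74 (adjusted p = 0.00219) and -0.77 (adjusted p = 0.000309). Without J7_MLKL 1 alone edgeR gave -0.72 (adjusted p = 0.00611) and -0.73 (adjusted p = 0.00304). Both interactions use the same CTL libraries.

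**Figure D2:**
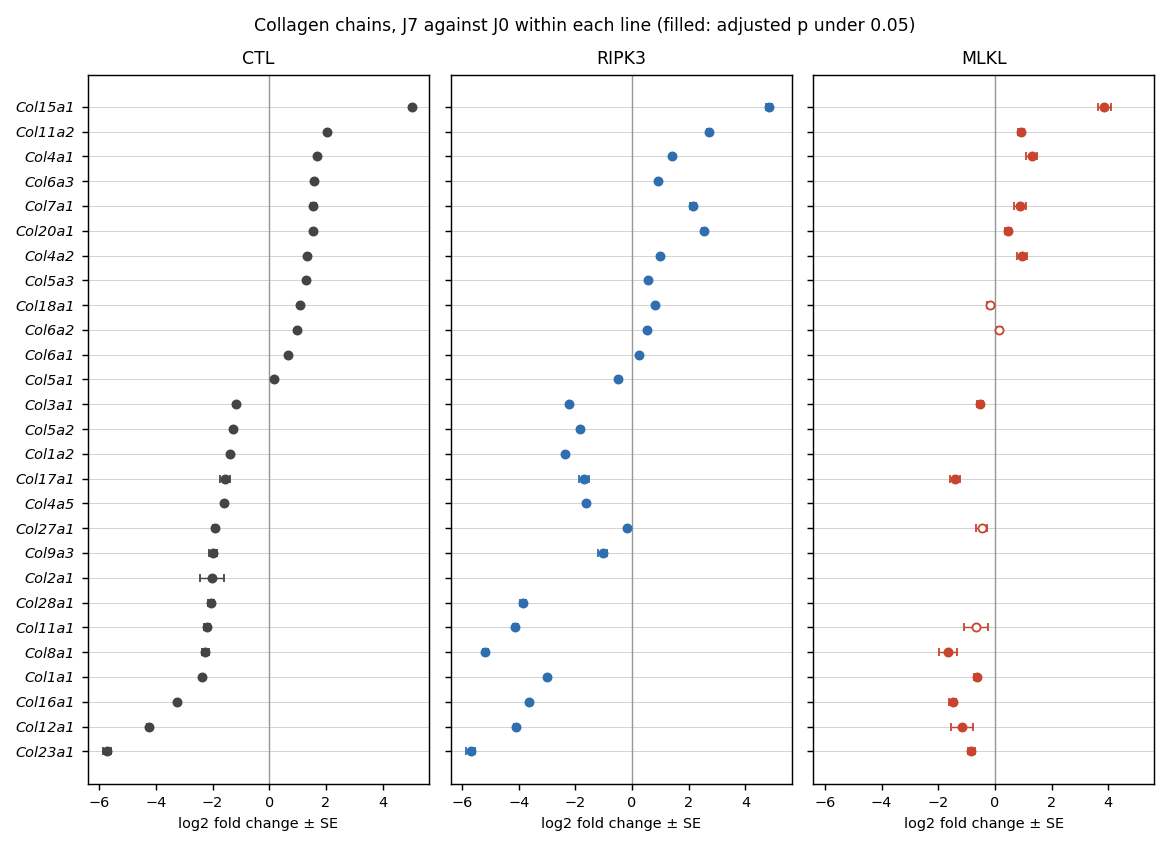
Log2 fold change of J7 against J0 in CTL, RIPK3 and MLKL for the collagen chains tested in CTL, with bars for the SE. Col4a4, tested in RIPK3 only, is not drawn. Filled points passed an adjusted p of 0.05. Col15a1 is at the top in each panel, and points for Col23a1, Col12a1 and Col1a1 lie nearer to 0 in MLKL than in CTL.

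Before differentiation, the knockout-labelled cells were compared with J0_CTL. In J0_RIPK3 11 of 26 chains were higher and 6 lower, beside 28.3% and 27.4% of all 11044 genes tested, 55.8% together. Of 9 fibrillar chains 8 were higher and 0 lower, with Col11a2 not called (-0.07 ± 0.07). Each of the 8 is among the genes that the authors called in this comparison, so a call for them was fixed in advance. The differences of the 8 chains were mostly small. Col1a1 was 0.30 ± 0.03 higher on the log2 scale and Col3a1, at 542, 566 and 545 FPKM, 0.34 ± 0.03 higher. Larger differences were seen for Col8a1 (1.84 ± 0.06, adjusted p = 1.1e-16), for Col28a1 and for Col11a1. Col28a1 was at 3.51, 2.99 and 3.83 FPKM in J0_CTL and at 9.94, 11.8 and 10.2 in J0_RIPK3 (1.60 ± 0.07). Col11a1 was at 2.61, 2.64 and 2.70 FPKM in J0_RIPK3, above every J0_CTL library (1.43 ± 0.07). Col15a1 was the lowest relative to CTL at -2.20 ± 0.13, followed by Col20a1 at -0.50 ± 0.06 and Col18a1 at -0.42 ± 0.04. The 3 type VI chains, Col4a1 and Col4a2 did not pass, at -0.07 to 0.02.

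In J0_MLKL 7 of 18 chains were higher and 7 lower than in J0_CTL, beside 40.4% and 43.2% of all 3824 genes tested, 83.6% together. Without J0_MLKL 2 the counts were 8 and 7. All 5 fibrillar chains with counts were higher. Each is among the genes that the authors called in this comparison, so a call for them was fixed in advance. Col1a2, Col5a1, Col5a2 and Col5a3 have no counts in J0_MLKL and could not be tested. Col11a1 led, at 7.10, 4.90 and 8.07 FPKM against 0.943, 0.945 and 1.04 (log2 fold change 2.81 ± 0.18, adjusted p = 1.16e-05). Col27a1 was at 13.97, 12.03 and 14.5 FPKM against 6.65, 7.22 and 7.41 (0.96 ± 0.09), and Col1a1 was 0.66 ± 0.06 higher. Col8a1 was at 5.26, 3.77 and 6.46 FPKM, above its J0_CTL level (1.14 ± 0.19). Both multiplexins were lower, Col15a1 by far the most at -3.95 ± 0.16 and Col18a1 at -1.34 ± 0.08. Col12a1 was at 2.68, 1.84 and 2.98 FPKM against 8.11, 8.25 and 8.35 (-1.69 ± 0.16). J0_MLKL 2 was the lowest of its group for Col11a1, Col27a1, Col8a1 and Col12a1, and without it their values were 3.00, 1.05, 1.34 and -1.50.

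After differentiation, J7_MLKL held 12 of 25 chains above and 9 below J7_CTL. All 7263 genes tested gave 48.5% higher and 46.4% lower, 94.9% together. Without J7_MLKL 3 the counts were 12 and 10. The authors called 21 of the 25 chains in this comparison, so a call for those was fixed in advance. Col1a1 was 5.50-fold higher (log2 fold change 2.46 ± 0.10, adjusted p = 7.12e-06), Col27a1 5.59-fold higher (2.48 ± 0.20) and Col5a2 2.87-fold higher (1.52 ± 0.19). Col1a2 was at 685, 668 and 579 FPKM in J7_MLKL against 265, 265 and 272 (1.37 ± 0.11). Among chains above J7_CTL the largest differences were in scarce ones. Col23a1 was at 2.19, 2.18 and 1.95 FPKM against 0.116, 0.0495 and 0.111 (4.60 ± 0.28), and Col11a1 at 5.48, 5.74 and 1.79 against 0.205, 0.248 and 0.202 (4.41 ± 0.48). Col28a1 was at 7.51, 8.06 and 2.62 FPKM against 0.963, 0.828 and 0.783 (2.92 ± 0.43). For Col11a1 and Col28a1, J7_MLKL 3 was far below the other J7_MLKL libraries but above every J7_CTL library, and without it the values were 4.75 and 3.25. Col1a1, Col27a1, Col5a2 and Col1a2 were then at 2.42, 2.64, 1.68 and 1.41. Col9a2 had 20 reads over J7_MLKL and 0 over J7_CTL, at least 6.81-fold higher against the same floor.

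Chains that rose with differentiation in CTL were mostly lower in J7_MLKL. The same J7_CTL libraries enter that rise and this comparison, so they are not independent. Col15a1 was 33.7-fold lower (log2 fold change -5.08 ± 0.17) and Col18a1 5.95-fold lower (-2.57 ± 0.09). Col5a3 was at 24.1, 24.6 and 25.8 FPKM against 80.0, 81.0 and 79.3 (-1.58 ± 0.09). Col6a2 was at 141.7, 140.8 and 157.7 FPKM (-0.96 ± 0.10) and Col6a1 at 479.6, 459.3 and 390.6 (-0.60 ± 0.11). Col6a3, at 313.7, 324.5 and 129.5 FPKM, was lower, with J7_MLKL 3 far below the other libraries (-0.89 ± 0.33, adjusted p = 0.0361). Its call was lost when any 1 J7_CTL library was left out, at adjusted p values of 0.0661 to 0.0716, while without J7_MLKL 3 it was -0.60 (adjusted p = 1.82e-10). The same held for Col5a1 (-0.39 ± 0.15, adjusted p = 0.0373), at 0.0678 to 0.0765. Col11a2 (-0.31 ± 0.10, adjusted p = 0.0243) was -0.43 without J7_MLKL 3 (adjusted p = 1.79e-07). It lost its call without J7_MLKL 1, J7_MLKL 2, J7_CTL 2 or J7_CTL 3, with values of -0.35 to -0.27 and adjusted p of 0.0536 to 0.0816. Col4a1 and Col4a2 were not called, at -0.21 ± 0.19 and -0.12 ± 0.17. Col4a2 was at 0.02 without J7_MLKL 3.

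In J7_RIPK3, 6 of 26 chains were above and 16 below J7_CTL, beside 29.6% and 29.5% of all 11170 genes tested, 59.1% together. The median was -0.34 over the chains and 0.00 over all genes. The authors called 20 of the 26 chains in this comparison, so a call for those was fixed in advance. Of 9 fibrillar chains 7 were lower and 2 higher, and all 3 type VI chains were lower. Col15a1 was the most reduced (log2 fold change -2.38 ± 0.04, adjusted p = 6.4e-22), at 8.75, 8.93 and 8.50 FPKM against 45.8, 46.2 and 45.9. Col8a1 followed at -1.06 ± 0.22 and Col1a2 at -0.79 ± 0.03. Col1a2 was at 153.7, 155.9 and 151.1 FPKM, below each J7_CTL library, and Col3a1 was at 128.7, 119.6 and 114.9 (-0.69 ± 0.04). Col6a3 was at 325, 307 and 320 FPKM (-0.66 ± 0.03) and Col4a1 at 389, 385 and 370 (-0.24 ± 0.03).

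The chains above J7_CTL were led by Col27a1, at 7.28, 7.04 and 8.01 FPKM against 1.78, 1.99 and 1.98 (1.97 ± 0.06, adjusted p = 3.31e-17). Col9a3, a FACIT chain, was at 0.746, 0.681 and 1.07 FPKM against 0.559, 0.443 and 0.407 (0.86 ± 0.22). Col11a2 was at 19.1, 19.2 and 22.7 FPKM (0.64 ± 0.06). The small difference in Col11a1 (-0.48 ± 0.20, adjusted p = 0.0423) lost its call in 5 of the fits that left out 1 library (without J7_RIPK3 1, J7_RIPK3 2 or any 1 J7_CTL library), at adjusted p values of 0.0513 to 0.173, and in DESeq2, at 0.089.

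**Figure D3:**
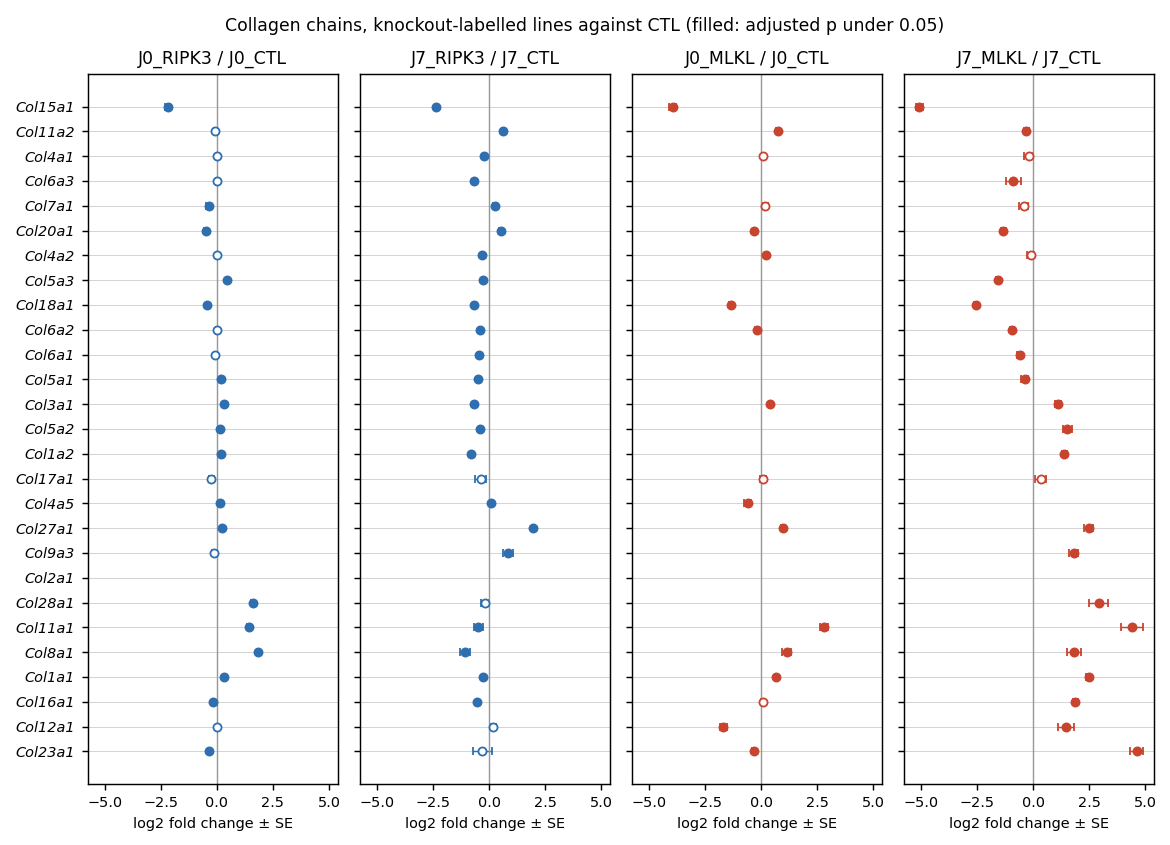
Log2 fold change of the RIPK3-labelled and MLKL-labelled groups against CTL at J0 and at J7, with bars for the SE. Filled points passed an adjusted p of 0.05, and a missing point marks a chain not tested. Col15a1 is below 0 in all 4 panels, and Col27a1 is above 0 in all 4.

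Set side by side, Col15a1 was lower than CTL in each comparison with CTL, at -2.20 and -3.95 in undifferentiated and -2.38 and -5.08 in differentiated RIPK3 and MLKL. Col27a1 was higher in each, at 0.21, 0.96, 1.97 and 2.48 in the same order. Comparisons at one stage share the CTL libraries. Col1a1 was above CTL in both lines at J0 but differed in sign at J7, at -0.28 ± 0.03 in RIPK3 and 2.46 in MLKL.

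Partner chains kept or changed their balance by pair, described here without a test as ratios of FPKM. Col1a1 per Col1a2 was 0.905 ± 0.018 in J0_RIPK3, 0.584 ± 0.013 in J7_RIPK3 and 0.880 ± 0.085 (SD, n = 3) in J7_MLKL, where the libraries gave 0.839, 0.823 and 0.978. The J7_MLKL ratio thus lay near that of undifferentiated cells, and the lowest ratio was that of J7_CTL. Col5a1 per Col5a2 was 0.639 ± 0.024 in J0_RIPK3, 1.61 ± 0.040 in J7_RIPK3 and 0.462 ± 0.038 in J7_MLKL. Col4a1 per Col4a2 was 1.14 to 1.25 over the means of the 3 J0 groups and 1.46 to 1.64 over those of the 3 J7 groups. Col6a1 per Col6a2 was 2.93 ± 0.031 in J0_CTL, 2.36 ± 0.018 in J7_CTL and 2.31 ± 0.055 in J7_RIPK3. In J7_MLKL it was 3.39, 3.26 and 2.48, with the low value in J7_MLKL 3.

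Summed over 25 chains, collagen FPKM changed less than its makeup. The sum was 3037 ± 92 (SD, n = 3) in J0_CTL, 3436 ± 14 in J0_RIPK3, 3213 ± 27 in J7_CTL, 2316 ± 48 in J7_RIPK3 and 3378 ± 448 in J7_MLKL. Fibrillar chains made up 62.7% of it in J0_CTL and 67.1% in J0_RIPK3, but 25.3% in J7_CTL and 24.3% in J7_RIPK3. In J7_MLKL they made up 53.4, 53.7 and 58.6% in the 3 libraries. Type VI chains were 25.04% in J0_CTL, 47.8% in J7_CTL, 46.2% in J7_RIPK3 and 24.95% in J7_MLKL. The type IV chains Col4a1 and Col4a2 rose from 8.20% of the sum in J0_CTL to 23.3% in J7_CTL, and stood at 26.5% in J7_RIPK3 and 18.1% in J7_MLKL.

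**Figure D4:**
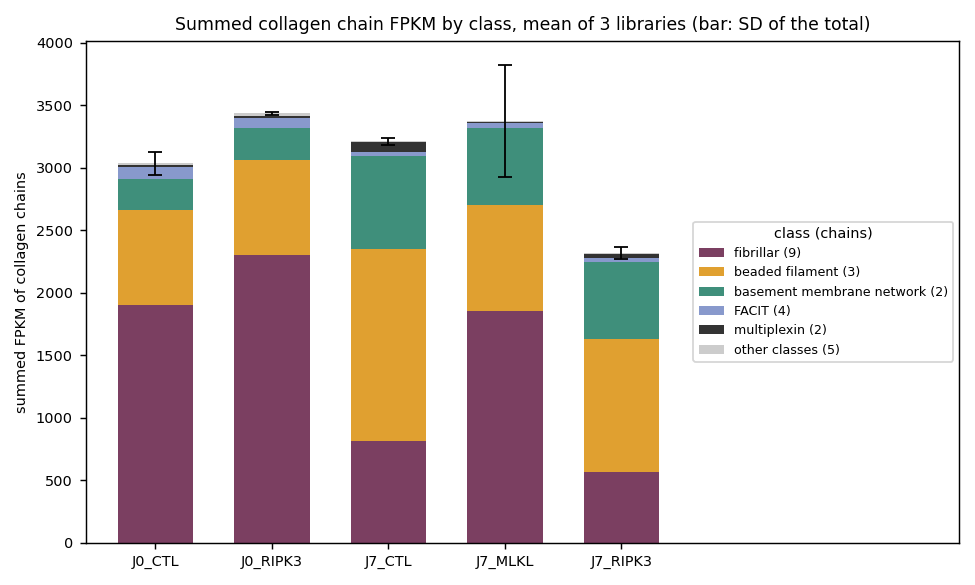
Stacked bars of summed collagen FPKM by class, as means of 3 libraries, for the 5 groups with counts for 25 chains. The error bar is the SD of the total. The fibrillar segment is 62.7% of the bar in J0_CTL, 25.3% in J7_CTL and 55.2% in J7_MLKL.

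As a share of all reads, the 17 chains with counts in every group took 1.19% ± 0.033 in J0_CTL, 1.51% ± 0.020 in J0_MLKL and 1.40% ± 0.0027 in J0_RIPK3 (SD, n = 3). After differentiation they took 1.14% ± 0.0065 in J7_CTL, 1.38% ± 0.15 in J7_MLKL and 0.873% ± 0.021 in J7_RIPK3. The libraries did not overlap in 6 of 7 comparisons, where a two-sided exact permutation test gave p = 0.1, the smallest p that 3 against 3 allow, so no comparison could pass 0.05. J7_MLKL against J0_MLKL gave p = 0.2 by the same exact test. The J7_MLKL share was 1.46% without J7_MLKL 3. The 17 chains have counts in J0_MLKL only because the authors called them in a comparison with that group. Col1a2, Col6a1 and Col6a3 are not among them. The 25 chains with counts in the groups other than J0_MLKL took 2.62% in J0_CTL, 2.995% in J0_RIPK3, 2.58% in J7_CTL, 2.89% in J7_MLKL and 1.81% in J7_RIPK3.

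Genes that modify, fold and process collagen were read from a list of 36 symbols, older names included, of which 28 had counts. In J7_CTL against J0_CTL 11 rose and 16 fell of 28 tested (median -0.29), beside the 95.9% of all genes called. P4ha3, a subunit of a prolyl 4-hydroxylase, went from 11.7, 11.4 and 13.1 FPKM to 0.238, 0.246 and 0.309 (log2 fold change -5.53 ± 0.12), and the proteases Tll1 and Adamts14 both fell by 3.08. Plod1, a lysyl hydroxylase, rose from 21.3, 19.97 and 20.9 FPKM to 96.5, 101.7 and 97.4 (2.20 ± 0.03), followed by Mia2 at 1.29 and Plod3 at 1.10. In RIPK3 9 rose and 17 fell of 26 (97.8% of all genes called), again led by P4ha3 (-7.00) and Plod1 (2.18). The RIPK3 interaction was called lower for 17 of 26 and higher for 0 (20.6% and 18.4% of all genes), with Tll1 at -1.97, P4ha3 at -1.45 and P3h2 at -1.25. In MLKL 1 rose (Pcolce2, 0.83) and 6 fell of 11, where 66.7% of all genes were called, and without both libraries that stood apart 1 rose and 8 fell.

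Against CTL, the same list gave 13 higher and 6 lower of 26 in J0_RIPK3 (55.8% of all genes called), with Tll1 (1.26) the highest and Creb3l1 and Bmp1 (both -0.31) the lowest, and 6 higher and 3 lower of 11 in J0_MLKL (83.6% of all genes called), led by Pcolce2 (1.40) and P3h2 (-1.62). Without J0_MLKL 2 the counts were also 6 and 3. In J7_RIPK3 4 were higher and 15 lower of 27 (59.1% of all genes called), with P3h2 at -1.34 and Adamts2, a procollagen N-proteinase, at -1.23. In J7_MLKL 8 were higher and 13 lower of 23 (94.9% of all genes called), or 10 and 13 without J7_MLKL 3. P4ha3 was at 12.6, 10.4 and 6.20 FPKM there (5.29 ± 0.33), Pcolce2, an enhancer of procollagen cleavage, at 18.6, 18.8 and 22.7 against 1.30, 1.26 and 1.54 in J7_CTL (3.97 ± 0.15), and Plod1 at 20.2, 19.3 and 23.5 (-2.13 ± 0.12). The MLKL interaction was called higher for 5 and lower for 4 of 11 (65.3% of all genes called), or for 6 and 4 without both libraries, led by P4ha3 at 4.09 and P4ha1 at -1.44.

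Collagen receptors came from a list of 12, of which 9 had counts, and the share of all genes called stands beside each count. In J7_CTL against J0_CTL 2 rose and 6 fell of 9 (95.9% of all genes called), with the adhesion receptor Adgrg6 at -3.91 ± 0.22 and Adgrg1 at 2.69 ± 0.08, and Mrc2, an endocytic collagen receptor, at -1.91 ± 0.03. In RIPK3 1 rose and 5 fell of 8 (97.8%), among them the discoidin domain receptor Ddr2 (-2.10), and in MLKL 2 rose and 2 fell of 6 (66.7%), or 3 and 3 without both libraries. J0_MLKL held 5 higher and 0 lower of 6 (83.6%), or 6 and 0 without J0_MLKL 2, with the integrin Itga1 at 1.79, 1.33 and 2.04 FPKM against 0.269, 0.321 and 0.293 (2.58 ± 0.18). J0_RIPK3 held 4 higher and 2 lower of 8 (55.8%), led by Adgrg6 (2.12). J7_MLKL held 7 higher and 1 lower of 8 (94.9%), the same counts as without J7_MLKL 3, with Itga1 at 3.54, 3.62 and 1.86 FPKM (3.24 ± 0.28) and Mrc2 2.53 higher on the log2 scale, and J7_RIPK3 held 1 higher and 4 lower of 8 (59.1%). The interaction was called higher for 4 and lower for 0 of 6 in MLKL (65.3%), or for 5 and 0 without both libraries. In RIPK3 it was called higher for 0 and lower for 4 of 8 (39.0%). The genes on both lists are known for collagen handling in general, and their median changes lay on either side of 0 from comparison to comparison.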

How the data were processed

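RNA of 18 libraries of 3T3-L1 cells was sequenced, and the submitters' processing notes name HISAT2, featureCounts 1.5.0-p3, the build mm10, DESeq2 and FastQC 0.11.9. The deposited tables, 1 for each of 7 comparisons, give raw read counts per gene and library. They also give the authors' normalised counts (signal), the authors' FPKM, the authors' log2 fold changes and the authors' p-values, per the file headers. Genes whose adjusted p by the authors was 0.05 or more are left out of them.

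Counts were joined by gene identifier. Of 76560 repeated counts 0 differed. The total of each library, 20.2 to 36.9 M reads, was computed from its counts, FPKM and gene lengths. Each pair of groups was fitted on all genes with counts in both, by edgeR 4.0.16 in R 4.3.3 (low counts removed by filterByExpr, TMM scaling of those totals, quasi-likelihood F test). Benjamini-Hochberg adjustment ran over all genes tested, and an adjusted p under 0.05 counts as higher or lower. SEs were derived from the F statistic. Read shares were compared by exact permutation tests in scipy 1.17.1. The fits were also run on simulated data with 200 changed genes and the same spread for every gene. Far more genes were called in the real data, so the simulation does not show how the fits behave there. TMM factors assume that most genes do not change, while 39.0 to 97.8% of genes were called, so the split into higher and lower calls depends on the scaling.

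Chains named with all values were the 3 largest calls each way in 5 comparisons, the highest chain by FPKM of each class, partner chains, and the 3 largest interactions. Chains, lists and rules were chosen with earlier results of these data known. Chains named outside that rule (Col2a1, Col4a4, Col4a5, Col7a1, Col8a2, Col9a2, Col17a1, Col22a1) complete their class. Alternatives were DESeq2 1.42.0, unscaled totals, no filter, a replicate block, each library left out and the other J7 labelling. Ontology and pathway tables were not used here. Sequences are from RefSeq.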

Additional observations from a re-analysis of the deposited data

Results flagged for a closer look

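For 13 of 17 chains tested the J7 minus J0 change in MLKL differed from that in CTL. For 21 of 26 chains tested that in RIPK3 did. Both counts are interactions in edgeR's quasi-likelihood test at an adjusted p under 0.05. Over all genes tested, 65.3% were called in the MLKL interaction and 39.0% in the RIPK3 interaction. The MLKL counts without J7_MLKL 3 and J0_MLKL 2 are given above. All values are differences of log2 changes over 3 libraries per group. In MLKL the higher values were 4.83 for Col23a1, 3.04 for Col12a1, 1.71 for Col16a1, 1.69 for Col1a1, 1.49 for Col11a1, 1.42 for Col27a1 and 0.59 for Col3a1. The lower values were -1.34 for Col18a1, -1.24 for Col15a1, -1.17 for Col11a2, -1.13 for Col20a1, -0.86 for Col6a2 and -0.72 for Col7a1.

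In RIPK3 the higher values were 1.77 for Col27a1, 1.01 for Col20a1, 0.99 for Col9a3, 0.70 for Col11a2 and 0.62 for Col7a1. Among fibrillar chains the lower values were -1.90 for Col11a1, -1.03 for Col3a1, -0.96 for Col1a2, -0.73 for Col5a3, -0.67 for Col5a1, -0.58 for Col1a1 and -0.55 for Col5a2. Type VI chains gave -0.66 for Col6a3, -0.42 for Col6a2 and -0.38 for Col6a1, and type IV chains -0.33 for Col4a2 and -0.26 for Col4a1. The others were -2.90 for Col8a1, -1.77 for Col28a1, -0.38 for Col16a1 and -0.25 for Col18a1. Col20a1, Col11a2 and Col7a1 were lower in the MLKL interaction and higher in the RIPK3 interaction, and the 2 interactions were not tested against each other. The same CTL libraries enter both.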

How the results depend on the processing

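Counts of called chains stayed within 1.5 times their value under DESeq2 1.42.0, unscaled totals, no filter on low counts, the replicate block and each left-out library, and the 4 counts without both J7_MLKL 3 and J0_MLKL 2 (chosen after seeing the data) did too. Single values could still shift. In DESeq2 the MLKL interaction was -0.74 for Col4a1 and -0.77 for Col4a2, in place of -0.42 and -0.45. The reading of the J7 labels moved 3 counts. With J7 groups taken from the genotype characteristic, 6 chains rose in RIPK3 in place of 12, and the RIPK3 interaction was called higher for 11 and lower for 8 in place of 5 and 16. Under that reading, changes in RIPK3 with differentiation turned to -1.13 for Col18a1, 0.71 for Col11a1, 0.27 for Col27a1, -0.82 for Col5a3, 0.03 for Col5a2 and -0.07 for Col6a2, and the change in MLKL to 1.97 for Col18a1. The MLKL interaction turned to -0.63 for Col16a1, 1.55 for Col15a1, 0.65 for Col18a1, -3.30 for Col11a1, -2.21 for Col8a1, 0.80 for Col20a1, -0.96 for Col1a1 and -1.11 for Col3a1. The RIPK3 interaction turned to 2.02 for Col16a1, -0.27 for Col11a2, 2.95 for Col11a1, -0.86 for Col20a1, 1.28 for Col28a1, 1.16 for Col1a2, 2.13 for Col1a1, 0.72 for Col3a1 and 1.34 for Col5a2. These reversals follow from the exchange of the J7 knockout groups.

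Values near 0 that were not called with groups taken from the titles changed sign with 1 library left out. In J0_RIPK3 against J0_CTL the ranges were -0.01 to 0.04 for Col12a1, -0.01 to 0.04 for Col6a2 and -0.02 to 0.03 for Col6a3, which was 0.02 with unscaled totals. Col4a2 ranged from -0.25 to 0.02 in J7_MLKL against J7_CTL, and the RIPK3 interaction of Col23a1 from -0.24 to 0.22. The cause was not tested.

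In no comparison did libraries with the same number deviate together for all 3 numbers. Correlations were 0.59, -0.78 and -0.69 in J7_MLKL against J0_MLKL, which holds both libraries that stood apart, and -0.11 to 0.08 elsewhere. The samples were treated as unpaired, but these values cannot show whether libraries with the same number were prepared together. With the replicate block, J7_MLKL against J0_MLKL gave 5 higher and 6 lower in place of 6 and 7, and J7_RIPK3 against J7_CTL gave 15 lower in place of 16. Col12a1 was at -1.24 (edgeR, adjusted p = 0.064) in J7_MLKL against J0_MLKL with the block. Depth limits the scarce chains Col2a1, Col4a4, Col8a2, Col9a2 and Col22a1. Counts are known for only some chains in the MLKL groups, and preselected genes raise the share of calls everywhere.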
